A study of Homo sapiens with 8 samples.

Results

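Accessibility at potassium channel genes was examined in 4 HEK293T lines. The genes were all protein-coding genes on chromosomes 1 to 22 whose symbol starts with KCN in GENCODE 44, which gave 94 of the 19111 protein-coding genes on these chromosomes, in 21 subfamilies. HEK293T is a human embryonic kidney cell line in common laboratory use. The assay was ATAC-seq, in which the transposase Tn5 cuts open chromatin. Every line carried an EZH2 construct brought in by lentivirus: the wild type (WT), Y641F, A677G or the double mutant H689A/F667I, with 2 libraries each. EZH2 methylates histone H3 as the catalytic subunit of Polycomb repressive complex 2. The study calls Y641F and A677G gain-of-function (GOF) and H689A/F667I loss-of-function (LOF). The constructs were added to cells that keep their own EZH2, selection with blasticidin was aimed at monoclonal populations, and both libraries of a mutant came from 1 line, so a difference between lines cannot be told apart from a difference between selected populations. No untreated or empty-vector library was analysed here.

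Potassium channels let potassium ions leave or enter the cell down their gradient and so set the resting potential and end the action potential. Their pore subunits fall into voltage-gated, calcium- or sodium-activated, inwardly rectifying and 2-pore-domain channels. Modifier subunits (KCNF, KCNG, KCNS, KCNV) form no working channel alone but join KCNB subunits, and auxiliary subunits (KCNAB, KCNE, KCNIP, KCNMB) change gating or transport to the membrane. Many of these genes are used mainly in nerve and muscle, and genes kept silent in a tissue are frequent targets of Polycomb repression.

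A promoter was called open in a library where at least 1 peak of the authors' list overlapped the 1000 bp on either side of a protein-coding transcription start site (TSS), and closed where none did, which does not mean that signal was absent. The strongest peak, that with the highest −log10 p, gave the promoter's fold (pileup over local background) and its −log10 p. Read depth is unknown. The lists held 62739 and 60420 peaks on chromosomes 1 to 22 in WT, 25423 and 35380 in Y641F, 36744 and 44754 in A677G, with 46317 and 47164 in H689A/F667I. The early kidney markers PAX2, LHX1, EYA1, VIM and CDH2 had open promoters in all 8 libraries. Of markers of other lineages, ALB, CD3E, PTPRC and INS had no promoter peak in any library, APOB had one in both WT libraries only, HBB in both A677G libraries only, and MYOD1 in all 8.

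KCN promoters fell into 3 groups. Of the 94, 32 (34.0%) were open in all 8 libraries against 58.4% of all protein-coding genes. A further 40 were open in some libraries only, against 18.0% of all genes. The remaining 22 (23.4%) were open in none, against 23.7% of all genes. The sizes of these groups depended on the peaks and on the starts counted. With each library held to its strongest 25423 peaks by −log10 p, 25 KCN promoters were open in all, 26 in some and 43 (45.7%, against 31.0% of all genes) in none. With a stricter −log10 q of at least 5 it was 8 in all, 32 in some and 54 (57.4%, against 37.9%) in none. With all peaks but only the 5′ end of the gene record as the start, 25 were open in all. There 40 were open in some and 29 (30.9%, against 29.8%) in none. The largest group was thus the one that varied between libraries when all peaks were counted, and the one without a peak under both settings with fewer peaks.

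Among the 29 voltage-gated pore subunits, 11 promoters were open in all libraries, 16 in some and 2 (KCNA7, KCNA10) in none. Of the 10 modifier subunits, 4 were open in all, 4 in some and 2 (KCNG4, KCNS1) in none. Of the 16 auxiliary subunits, a class in which KCNRG, a regulator of channel assembly, was also counted, 5 were open in all, 4 in some and 7 in none. These 7 were KCNE2, KCNE3, KCNE4, KCNMB1, KCNMB3, KCNAB3 and KCNRG. Of the 8 calcium- or sodium-activated channels, with KCNU1 counted here by its family, 4 were open in all, 2 in some and 2 (KCNN4, KCNU1) in none. The 16 inward rectifiers had 4 open in all, 6 in some and 6 in none, the latter being KCNJ1, KCNJ9, KCNJ14, KCNJ15, KCNJ16 and KCNJ18. KCNJ18 is nearly identical to KCNJ12, so reads of these genes may not be told apart. The 15 2-pore-domain channels had 4 open in all, 8 in some and 3 (KCNK15, KCNK17, KCNK18) in none. KCNMA1, which has 36 protein-coding starts, was open in every library, while the only KCNF gene, with 1 start, was open in WT alone.

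Sequences of 6 promoters show the range of bases behind these groups. They are RefSeq windows (GRCh38.p14, the assembly of hg38) from 250 bases before to 50 bases after a start, read along the gene, with each CpG dinucleotide in capitals. Of the 94 genes, 70 (74.5%) had such a window, so CpG content was not compared between groups of genes. KCNF1 is shown because its peak was present in both WT libraries and absent in all 6 mutant libraries, KCNC2 because its peak was absent in all 4 GOF libraries, and KCND3 as a CpG-dense promoter whose peak was absent in Y641F. KCNN3 had the strongest promoter peak in WT, KCNT2 the largest rise in fold, and KCNA10 stands for promoters without a peak.
KCNF1, chr2:10911684-10911983, plus strand: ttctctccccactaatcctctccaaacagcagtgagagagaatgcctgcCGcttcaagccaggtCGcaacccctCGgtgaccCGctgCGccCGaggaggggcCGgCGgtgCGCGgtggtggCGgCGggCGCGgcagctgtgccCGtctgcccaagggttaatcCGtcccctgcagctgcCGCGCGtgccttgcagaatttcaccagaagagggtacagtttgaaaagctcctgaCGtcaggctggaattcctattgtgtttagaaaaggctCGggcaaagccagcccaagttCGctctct
KCNC2, chr12:75209790-75210089, minus strand: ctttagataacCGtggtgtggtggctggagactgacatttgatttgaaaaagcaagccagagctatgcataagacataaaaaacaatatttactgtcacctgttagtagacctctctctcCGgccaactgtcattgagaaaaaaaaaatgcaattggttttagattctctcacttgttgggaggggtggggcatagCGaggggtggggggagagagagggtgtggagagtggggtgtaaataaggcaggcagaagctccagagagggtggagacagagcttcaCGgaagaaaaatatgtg
KCND3, chr1:111989619-111989918, minus strand: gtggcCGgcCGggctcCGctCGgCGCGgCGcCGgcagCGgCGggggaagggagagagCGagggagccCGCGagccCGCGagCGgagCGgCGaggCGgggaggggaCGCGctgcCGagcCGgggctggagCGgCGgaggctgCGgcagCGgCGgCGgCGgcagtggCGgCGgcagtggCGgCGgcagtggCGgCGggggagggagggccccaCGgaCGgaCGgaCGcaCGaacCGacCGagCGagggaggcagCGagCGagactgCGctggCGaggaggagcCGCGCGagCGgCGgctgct
KCNN3, chr1:154870232-154870531, minus strand: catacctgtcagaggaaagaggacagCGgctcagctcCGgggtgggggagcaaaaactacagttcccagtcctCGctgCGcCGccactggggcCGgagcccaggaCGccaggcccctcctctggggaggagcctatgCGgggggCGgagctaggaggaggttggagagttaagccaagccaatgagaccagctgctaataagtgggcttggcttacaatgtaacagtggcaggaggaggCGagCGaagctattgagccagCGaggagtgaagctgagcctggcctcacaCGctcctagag
KCNT2, chr1:196608391-196608690, minus strand: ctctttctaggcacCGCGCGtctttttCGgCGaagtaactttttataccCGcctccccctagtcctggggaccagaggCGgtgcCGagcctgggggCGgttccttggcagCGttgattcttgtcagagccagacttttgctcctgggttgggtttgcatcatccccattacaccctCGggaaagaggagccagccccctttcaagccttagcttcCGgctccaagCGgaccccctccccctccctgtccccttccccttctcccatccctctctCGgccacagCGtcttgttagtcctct
KCNA10, chr1:110519126-110519425, minus strand: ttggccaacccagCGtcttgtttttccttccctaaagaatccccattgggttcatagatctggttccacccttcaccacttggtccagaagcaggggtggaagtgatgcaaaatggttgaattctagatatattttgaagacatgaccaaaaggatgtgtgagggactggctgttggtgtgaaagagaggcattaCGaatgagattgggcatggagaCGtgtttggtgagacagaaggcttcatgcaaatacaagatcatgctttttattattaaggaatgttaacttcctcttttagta

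The KCND3 window held 53 CpG dinucleotides and the KCNF1 window 22. The KCNT2, KCNN3, KCNC2 and KCNA10 windows held 15, 13, 4 and 3. The median over all 33725 autosomal RefSeq windows was 14. Windows rich and poor in CpG were therefore both found among promoters whose peak was absent in Y641F. The letters GGGCGG (a GC box), searched on both strands, were found in the KCNN3 and KCNT2 windows and in 45.0% of all windows. TATAAA, searched likewise, was found in the KCNT2 window alone among the 6, and in 11.6% of all windows. A match is a description of the letters and not a bound site. The strongest promoter peak overlapped the KCNN3 and KCNT2 windows in all 8 libraries, the KCND3 window in 4, the KCNF1 and KCNC2 windows in 2 each, and the KCNA10 window in none.

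**Figure D1:**
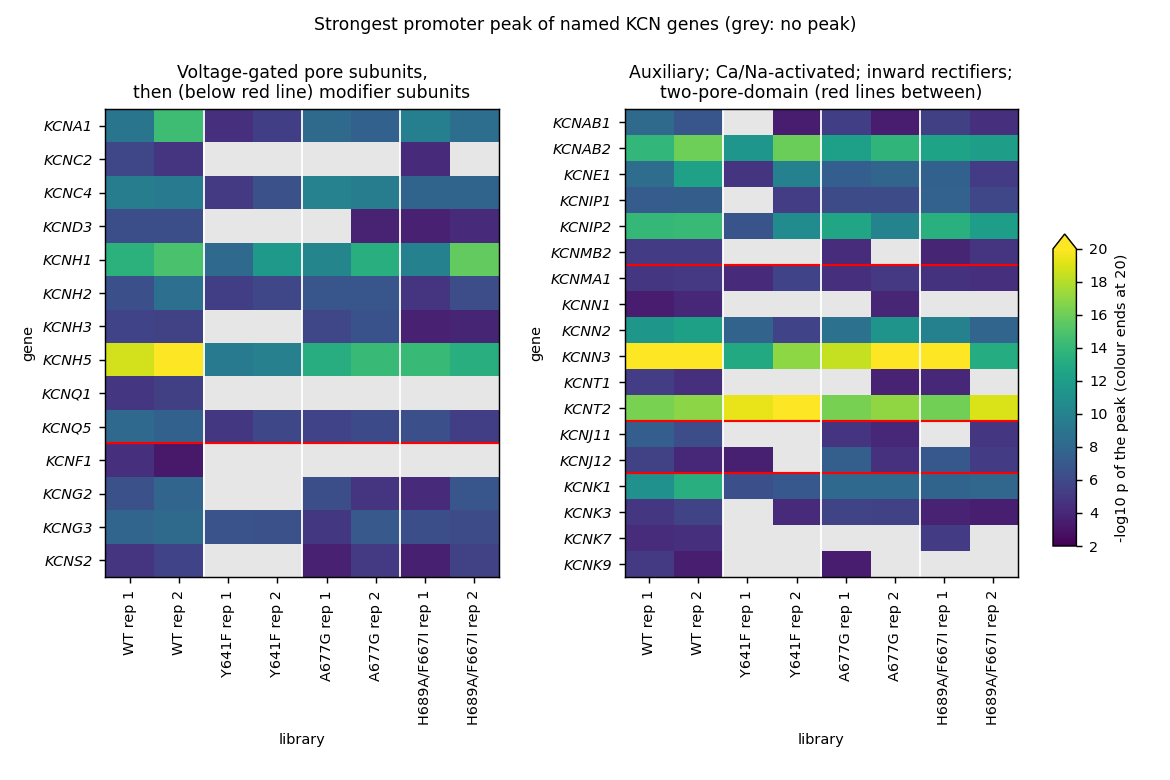
Colour gives the −log10 p of the strongest promoter peak for the 32 KCN genes with a promoter peak that the text names (rows, by class, split by red lines) in each of the 8 libraries (columns); grey marks no peak and the colour scale ends at 20. Many of the 32 were named because their peak was lost, and grey cells number 16 and 14 in the Y641F columns, 5 to 7 in each other mutant column and 0 in WT.

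The first comparison asked how many KCN promoters were open in each line. WT had 64 and 63 open KCN promoters in its libraries (63.5 ± 0.707, SD, n = 2). Y641F had 35 and 43 (39.0 ± 5.66, SD, n = 2), A677G 52 and 57 (54.5 ± 3.54, SD, n = 2), and H689A/F667I 55 and 56 (55.5 ± 0.707, SD, n = 2). All 6 mutant libraries had fewer than either WT library, and the A677G and H689A/F667I libraries overlapped. As shares, 67.0 to 68.1% of KCN promoters were open in WT and 37.2 to 45.7% in Y641F, while the shares for all genes were 72.3 to 72.7% and 59.8 to 66.2%. With 2 libraries a line the smallest p that an exact permutation test allows is 0.333, so no such comparison can pass a threshold of 0.05.

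Peak number moved with this result. When each library was held to 25423 peaks, as many as the smallest list has, 35 and 40 KCN promoters were open in WT, 35 and 35 in Y641F, 41 and 39 in A677G, with 35 and 34 in H689A/F667I. Y641F was then no longer below all WT libraries. The KCN shares were 36.2 to 43.6% over the 8 libraries and stayed below the shares of all genes, 59.8 to 61.3%, in each library.

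**Figure D2:**
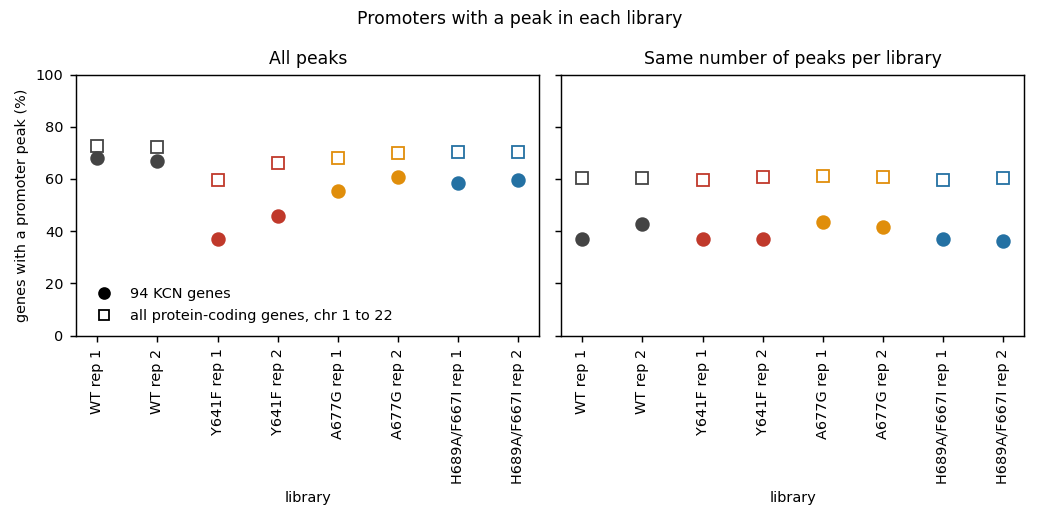
Each point is the percent of genes with a promoter peak in 1 library, for the 94 KCN genes (filled circles) and all 19111 protein-coding genes (open squares), with all peaks (left) and with the same 25423 peaks per library (right). KCN shares run from 37.2 to 68.1% on the left and from 36.2 to 43.6% on the right, and lie below the squares in every library.

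The next comparison asked which KCN promoters lost their peak. A promoter was lost where both WT libraries had a peak and neither library of the mutant had one. Of the 60 KCN promoters open in both WT libraries, 15 (25.0%) were lost in Y641F, where 6.83% of all promoters were lost. In A677G 5 (8.33%) were lost against 2.2% of all promoters, and in H689A/F667I 4 (6.67%) against 1.53%. None of the 27 KCN promoters closed in both WT libraries was gained in any mutant, where 0.162%, 0.304% and 0.587% of all such promoters were gained in Y641F, A677G and H689A/F667I. The 3 comparisons share the WT libraries. With a line judged by its remaining library, 26 were lost without Y641F replicate 2, 9 without A677G replicate 2, and 8 in H689A/F667I without WT replicate 2 or H689A/F667I replicate 1.

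Of the voltage-gated pore subunits, 6 were lost in at least 1 mutant, and 4 of them are described here. KCNQ1, the pore of the slow delayed rectifier of heart and inner ear, had −log10 p of 4.88 and 5.43 in WT and no peak in any of the 6 mutant libraries. This peak also lay within 1000 bp of a TSS of TRPM5, so the gene it belongs to is uncertain. KCNC2, a fast-deactivating channel of fast-spiking neurons, had 5.81 and 4.79 in WT, 4.13 in H689A/F667I replicate 1 and no GOF peak. KCND3, a pore of the transient outward current of the heart, had 6.32 and 6.30 in WT and none in Y641F, 3.73 in A677G replicate 2 only, with 3.68 and 4.23 in H689A/F667I. KCNH3, a member of the ether-à-go-go-like branch of the KCNH family, had 5.63 and 5.51 in WT, none in Y641F, 5.87 and 6.51 in A677G, with 3.69 and 3.83 in H689A/F667I. The A677G peaks of KCNH3 were above both WT values.

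Of the modifier subunits, 3 were lost. KCNF1 had 4.41 and 3.21 in WT and no peak in the other 6 libraries. KCNG2 had 6.49 and 7.88 in WT, none in Y641F, 6.32 and 4.71 in A677G, with 4.12 and 6.85 in H689A/F667I. KCNS2 had 4.68 and 5.59 in WT, none in Y641F, 3.63 and 5.06 in A677G, with 3.61 and 5.49 in H689A/F667I. Only KCNF1 of these 3 lacked a peak in a line other than Y641F. Of the auxiliary subunits, KCNMB2, a β subunit that inactivates the large-conductance calcium-activated channel, had 5.13 and 5.22 in WT, none in Y641F, 4.27 in A677G replicate 1 only, with 3.89 and 4.77 in H689A/F667I.

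Of the calcium- or sodium-activated channels, KCNN1, a small-conductance calcium-activated channel, had 3.43 and 4.03 in WT, 3.92 in A677G replicate 2 and no peak elsewhere. KCNT1, a sodium-activated channel, had 5.27 and 4.43 in WT, 3.80 in A677G replicate 2, 3.99 in H689A/F667I replicate 1 and none in Y641F. The mutant lines other than Y641F thus had at most 1 library with a peak at either gene. Of the inward rectifiers, KCNJ11, the pore of the ATP-sensitive channel of pancreatic β cells, had 7.37 and 6.27 in WT, none in Y641F, 4.78 and 4.03 in A677G, and 4.83 in H689A/F667I replicate 2 only. Of the 2-pore-domain channels, KCNK9, an acid-sensitive background channel, had 5.05 and 3.49 in WT, 3.37 in A677G replicate 1 and no peak elsewhere. KCNK7, a family member without a well-described current, had 4.26 and 4.51 in WT, 5.17 in H689A/F667I replicate 1 and none in the GOF libraries. The H689A/F667I peak of KCNK7 was the strongest of its 3.

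Replicates of 1 line often disagreed at these genes. The number of KCN promoters with a peak in only 1 of 2 libraries was 7 in WT, 14 in Y641F, 9 in A677G, then 11 in H689A/F667I. Of the 15 promoters lost in Y641F, 5 were open in both A677G libraries, 5 in 1 and 5 in neither, and 6 were open in both H689A/F667I libraries, 5 in 1 and 4 in neither. Of the 50 KCN promoters open in all 4 WT and H689A/F667I libraries, 0 were closed in all 4 GOF libraries, against 0.371% of all such promoters.

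The lost promoters were weak in WT. The mean WT −log10 p of the 15 promoters lost in Y641F ran from 3.51 to 7.18 with a median of 5.15, and their median summed peak width was 722 bp. For the 32 KCN promoters open in both WT and both Y641F libraries the median was 11.3, over a range of 4.94 to 28.2, and the median summed width was 1330 bp. Over all 60 KCN promoters open in both WT libraries the median was 7.85, against 11.5 over all 13549 promoters. Of the 60, 32 fell among the 3389 weakest of all promoters (a mean WT −log10 p of at most 8.24), and every KCN promoter lost in any mutant was among these 32. Among these 3389 weak promoters 15 of 32 KCN promoters (46.9%) were lost in Y641F against 25.3% of all promoters, 5 (15.6%) in A677G against 8.41%, and 4 (12.5%) in H689A/F667I against 5.9%. KCN promoters were also weaker than others inside this set, with a median of 5.46 against 6.49. Among the 1355 weakest, 12 of 19 (63.2%) were lost in Y641F against 45.5% of all promoters, and among the next 1355 it was 3 of 9 (33.3%) against 14.5%. The division by strength was chosen after the losses had been seen.

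At equal peak number, 1 of 33 KCN promoters was lost in Y641F (KCNAB1), none in A677G and 1 in H689A/F667I (KCNAB1), where 2.15%, 1.16% and 1.28% of all promoters were lost. KCNAB1 encodes a β subunit that speeds inactivation of KCNA channels. Of 52 closed in both WT libraries, 1 (1.92%) was gained in Y641F (KCNMA1) against 3.62% of all promoters, 2 (3.85%) in A677G (KCNK3 and KCNH3) against 3.02%, and 0 in H689A/F667I against 2.02%. At equal peak number the counts of lost KCN promoters were thus 0 or 1, with 33 in place of 60 promoters open in both WT libraries.

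**Figure D3:**
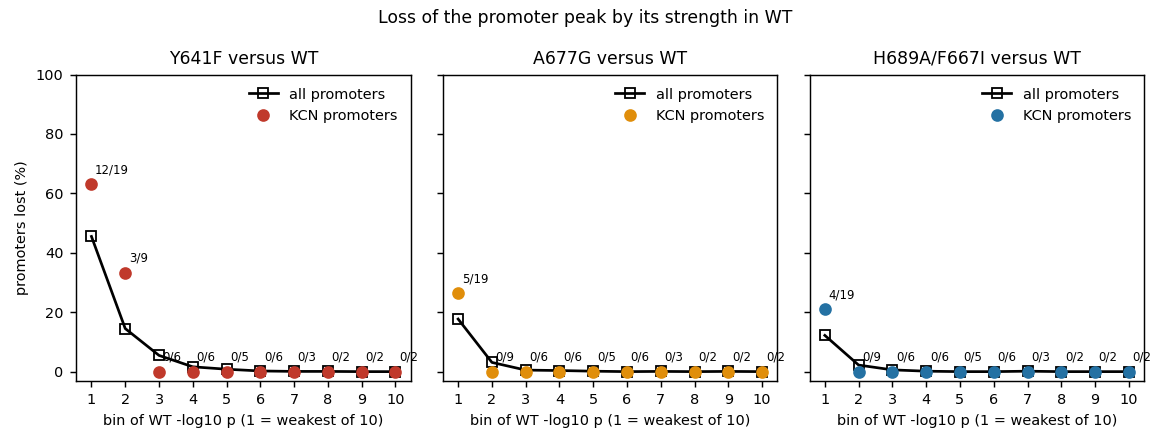
Percent of promoters lost in each mutant (panels) by the mean WT −log10 p in 10 bins of equal size, for all promoters open in both WT libraries (squares joined by a line) and for KCN promoters (circles, with lost over tested). KCN losses lie in the 2 weakest bins for Y641F (12 of 19 and 3 of 9) and in the weakest bin for A677G (5 of 19) and H689A/F667I (4 of 19), and no KCN promoter was lost in the others.

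The promoters described next were picked for a high WT fold among the KCN promoters open in all 8 libraries. KCNN3, a small-conductance calcium-activated channel, had the highest fold among KCN promoters open in all 8 libraries, with a mean WT percentile of 98.5 among all open promoters. Its fold was 7.79 and 6.54 in WT, 5.08 and 5.23 in Y641F, 6.10 and 6.59 in A677G, with 7.05 and 4.73 in H689A/F667I. Both Y641F values were below both WT values, and the H689A/F667I libraries held both a value among those of WT and the lowest of the 8. KCNH5, a voltage-gated channel of the ether-à-go-go group (percentile 97.0), had 6.33 and 6.65 in WT, 4.96 and 5.18 in Y641F, 5.82 and 5.87 in A677G, with 6.15 and 6.08 in H689A/F667I. All 6 mutant values were below both WT values, with the lowest in Y641F. KCNN2, another small-conductance channel, had 5.66 and 5.72 in WT and 4.76 and 3.86 in Y641F. KCNE1, the auxiliary subunit that slows KCNQ1, had 4.95 and 6.36 in WT and 3.56 and 5.75 in Y641F. KCNN2 was lower in Y641F in both libraries, while the KCNE1 values overlapped. KCNH1, the founding human member of the ether-à-go-go group, had 4.94 and 5.66 in WT and 4.45 and 5.03 in Y641F. The KCNH1 values of these lines overlapped.

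At the other end, KCNC4, KCNH2 (the hERG channel of the heart), KCNG3, KCNQ5 and KCNMA1 were among the 6 with the lowest WT percentiles of fold in promoters open in all libraries, from 8.02 for KCNC4 to 30.3 for KCNMA1. KCNC4 had a fold of 2.92 and 3.03 in WT, 2.71 and 2.88 in Y641F, 3.42 and 3.10 in A677G, with 2.82 and 2.77 in H689A/F667I. A low fold did not go with a narrow peak, since KCNC4 peaks summed to 1683 and 1734 bp in WT. KCNMA1, the pore of the large-conductance calcium-activated channel, kept a peak in all 8 libraries at −log10 p of 4.88 and 5.01 in WT and 4.13 and 5.61 in Y641F, below the WT values of several promoters that were lost. That gene has 36 protein-coding starts, however, and a peak near any of them counted. With the 5′ end of the gene record as the only start, it was not open in all 8 libraries. The peak of KCNG3 was shared with MTA3, and that of KCNAB2 with NPHP4.

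Width was largest in WT at KCNIP2, a calcium-binding partner of KCND channels, with summed widths of 2818 and 2367 bp in WT, 1108 and 1933 in Y641F, 1963 and 1947 in A677G, with 2454 and 2586 in H689A/F667I. Both Y641F values and both A677G values were below the WT values. KCNG3, KCNAB2, KCNN2 and KCND3 followed. KCND3, with 2072 and 1915 bp in WT, was the one of these 5 that was lost in Y641F, so a wide promoter peak could still be weak (−log10 p of 6.32 and 6.30). Over the KCN promoters with a peak, a set that differs between libraries, the median summed width in bp was 1012 for WT, 735.5 for Y641F, 778 for A677G and then 1004 for H689A/F667I, and the median fold was 3.81, 3.80, 3.85 and 3.79. Over the 32 promoters open in all 8 libraries the median width was 1302 bp for WT, 854.5 for Y641F, 961 for A677G and then 1112 for H689A/F667I, and the median fold 4.47, 3.84, 4.28 and 4.29. On this shared set both measures were lowest in Y641F. Over all promoters with a peak the median summed width was 1224 and 1211 bp in WT and 770 and 917 in Y641F. It was 908 and 982 in A677G, with 1018 and 1041 in H689A/F667I. The median fold of all promoters was 4.18 and 4.22 in WT, 4.01 and 4.06 in Y641F, 4.15 and 4.08 in A677G, with 4.15 and 4.16 in H689A/F667I. Lower values than in WT were thus not particular to KCN promoters.

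Fold was then compared by limma across the 11153 promoters open in all 8 libraries, on log2 values centred on each library's median. For Y641F versus WT 205 promoters were called at an adjusted p (Benjamini-Hochberg) under 0.05, 1.84% of those fitted, 141 of them higher. Without centring 513 were called and 85 were higher, so the balance of directions depended on the centring. For A677G 0 promoters (0%) were called, with 1576 at an unadjusted p under 0.05, and for H689A/F667I 0 (0%), with 962. The 205 calls fell to 0 without either WT library or Y641F replicate 1, to 61 without either H689A/F667I library, and were 308 without Y641F replicate 2. Of the 32 KCN promoters 0 were called in each of the 3 comparisons. At an unadjusted p under 0.05 there were 9 KCN promoters in the Y641F comparison, 2 in that of A677G and 1 in that of H689A/F667I, beside 2457, 1576 and 962 of all 11153 fitted. The median KCN difference was -0.046, -0.029 and -0.048 on the log2 scale, against 0.023, 0.0085 and 0.0054 over all promoters.

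The KCN gene with the lowest adjusted p was KCNT2, a sodium-activated channel. Its fold was 4.84 and 4.92 in WT, 6.14 and 5.86 in Y641F, 5.59 and 5.48 in A677G, with 5.40 and 5.43 in H689A/F667I. All 6 mutant values lay above both WT values, and Y641F was highest. The log2 difference for Y641F was 0.40 ± 0.096 (SE, n = 2 and 2), with an adjusted p of 0.0517 in limma that ran from 0.0498 (5′ end of the gene record only) to 0.257 over 13 fits. KCNA1, a low-threshold channel of axons, had a fold of 4.50 and 6.06 in WT, 3.54 and 3.80 in Y641F, 4.74 and 4.24 in A677G, with 5.18 and 4.78 in H689A/F667I. Its difference in Y641F was -0.41 ± 0.129 (SE), with an adjusted p of 0.0940 in limma and 0.0497 without centring. Neither KCNT2 nor KCNA1 passed the threshold, and each passed it under 1 other setting.

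Apart from promoters, peaks within the gene bodies were merged into regions open in at least 2 of the 8 libraries and not within 1000 bp of a TSS of the same gene. The KCN genes held 179 such regions, 159 in introns and 20 on exons, in 60 of the 94 genes. That is 1.35 regions per 100 kb of gene against 1.95 over all protein-coding genes. The median gene length was 46153 bp for KCN genes and 27877 bp for all, and the density was not matched for length. Of the 179, 20 (11.2%) were open in all 8 libraries against 17.5% of all gene body regions. The WT libraries had peaks at 157 and 148 of them, Y641F at 34 and 67, A677G at 86 and 101, and H689A/F667I at 109 and 113. Both libraries of every mutant were below both WT libraries, and the order of the lines was that of their peak numbers. A region could enter through the 2 libraries of a single line, and WT had the longest peak lists, so the counts lean towards WT.

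Of 135 KCN gene body regions open in both WT libraries, 69 (51.1%) were lost in Y641F against 44.4% of all, 39 (28.9%) in A677G against 26.4%, and 25 (18.5%) in H689A/F667I against 18.1%. The KCN shares lay near the background in A677G and H689A/F667I when all peaks were counted. Under the stricter q, 33 KCN regions had a peak in both WT libraries, and 20 (60.6%) were lost in Y641F against 58.0% of all, 18 (54.5%) in A677G against 39.4%, and 10 (30.3%) in H689A/F667I against 27.8%, so the A677G share was then above the background. The counts with all peaks moved with single libraries, to 104 without Y641F replicate 2, to 66 without A677G replicate 2 and 25 without WT replicate 2 for A677G, and for H689A/F667I to 8 and 16 without WT replicates 1 and 2 and to 41 and 42 without its own replicates 1 and 2. Of 9 regions closed in both WT libraries, 0 were gained in Y641F (8.57% of all), 4 in A677G (12.9% of all) and 0 in H689A/F667I (22% of all). Of the 4, 3 were introns of KCNH1, KCNAB1 and KCNN2, with −log10 p of 3.43 to 5.61 in the A677G libraries. At equal peak number, 8 (21.6%), 4 (10.8%) and 4 (10.8%) of 37 regions were lost, against 20.1%, 11.2% and 9.58% of all. As at promoters, the regions lost in Y641F were weak in WT, with a median −log10 p of 5.42 against 8.85 for the 27 that kept a peak in both Y641F libraries.

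The 47 longer KCN genes held 152 (84.9%) of the regions and the 47 shorter ones 27. The number did not follow length throughout, since 4 of the longer genes held none and KCNMB2, with a length of 571498 bp, held 1. KCNAB1 (chr3:156037701-156539138) had 16, of which 13 and 12 had peaks in WT, 5 and 8 in Y641F, 10 and 10 in A677G, with 11 and 10 in H689A/F667I. KCNIP1 (chr5:170353487-170736632), a partner of KCND channels, had 15, with 13 and 15 in WT, 2 and 6 in Y641F, 5 and 9 in A677G, with 11 and 12 in H689A/F667I. KCNMA1 (chr10:76869601-77638369) had 13, with 13 and 11 in WT, 3 and 3 in Y641F, 6 and 6 in A677G, with 9 and 8 in H689A/F667I. In KCNAB1, KCNIP1 and KCNMA1 every mutant library had fewer open regions than both WT libraries. Some regions of KCNIP1 and KCNMA1 had entered through the 2 WT libraries alone, which raises the WT counts of these genes. Without such regions the statement would hold for KCNAB1 only. KCNT2, KCNN3 and KCNQ1 followed with 7, 6 and 6. In KCNN3, 6 and 5 regions had peaks in WT, 1 and 2 in Y641F, 2 and 5 in A677G, with 5 and 5 in H689A/F667I. In these 4 genes Y641F had the fewest open regions on average, and the libraries of 1 line differed by up to 4 regions.

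**Figure D4:**
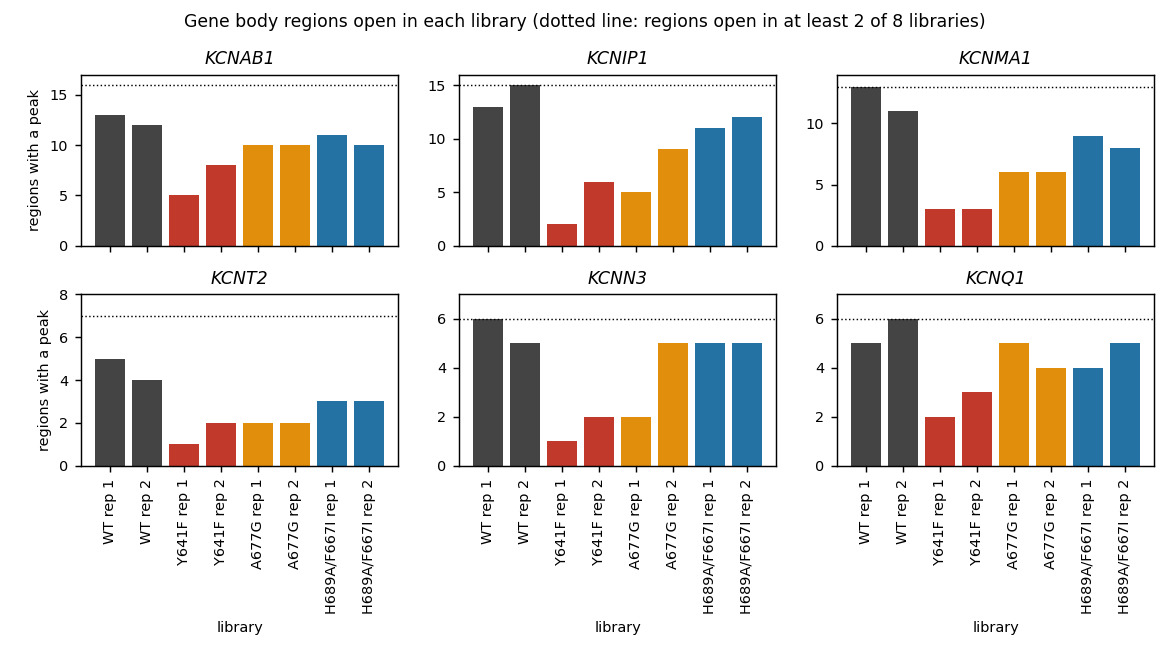
Bars give the number of gene body regions with a peak in each of the 8 libraries for the 6 KCN genes with most regions, coloured by line, and the dotted line is the number of regions per gene. In KCNIP1, for example, WT had 13 and 15 of 15 regions and Y641F 2 and 6.

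Of the 77 KCN gene body regions open in all WT and H689A/F667I libraries, 7 (9.09%) were closed in all 4 GOF libraries, against 5.31% of all such regions, and the reverse pattern was not found among 3 regions. All 7 were introns, and 6 of them lay in KCNN3 (chr1:154851809-154852085), KCNT2 (chr1:196543678-196544183), KCNK1 (chr1:233656280-233656917), KCNMA1 (chr10:76902978-76903250 and chr10:77165800-77166128) and KCNJ16 (chr17:70089545-70090111). The 7 regions had a mean WT −log10 p of 4.20 to 8.28 with a median of 5.37, against a median of 6.17 over the 135 KCN regions open in both WT libraries, and both KCNMA1 regions lay above that median. At equal peak number 0 of 25 KCN regions and 1.86% of all regions had the pattern. With a −log10 q of at least 5 it was 3 of 12, against 8.26% of all. Without A677G replicate 1 or 2 the pattern was found at 11 and 14 regions, and without H689A/F667I replicate 1 or 2 at 13 and 12.

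The sequences of the 2 shortest show what these intron regions hold, on the plus strand of hg38 with CpG dinucleotides in capitals.
KCNMA1 intron, chr10:76902978-76903250, plus strand: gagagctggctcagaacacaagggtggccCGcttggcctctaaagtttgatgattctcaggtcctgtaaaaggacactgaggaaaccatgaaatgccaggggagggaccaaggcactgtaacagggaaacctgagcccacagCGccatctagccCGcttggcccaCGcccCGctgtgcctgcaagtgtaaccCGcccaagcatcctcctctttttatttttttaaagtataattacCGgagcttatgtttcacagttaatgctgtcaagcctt
KCNN3 intron, chr1:154851809-154852085, plus strand: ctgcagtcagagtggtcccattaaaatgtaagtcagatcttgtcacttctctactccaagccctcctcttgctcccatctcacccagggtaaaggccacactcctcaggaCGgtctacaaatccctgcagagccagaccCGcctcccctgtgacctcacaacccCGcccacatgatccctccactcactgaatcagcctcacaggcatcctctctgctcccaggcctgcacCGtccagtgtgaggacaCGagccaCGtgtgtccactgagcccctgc
In the KCNMA1 region, 735255 bp from the 5′ end of the gene, the −log10 p was 5.27 and 9.31 in WT and 6.13 and 9.62 in H689A/F667I. In the KCNN3 region, 18334 bp from the 5′ end, it was 5.08 and 5.29 in WT and 4.39 and 5.79 in H689A/F667I. No GOF library had a peak at either. The regions held 7 and 6 CpG dinucleotides, and GGGCGG on either strand was in both. The second KCNMA1 intron region had 5.70 and 10.9 in WT and 8.11 and 7.83 in H689A/F667I. The KCNN3 promoter, 18334 bp away, had a peak in all 8 libraries, so an intron peak could be absent where the promoter of the same gene kept one.

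**Figure D5:**
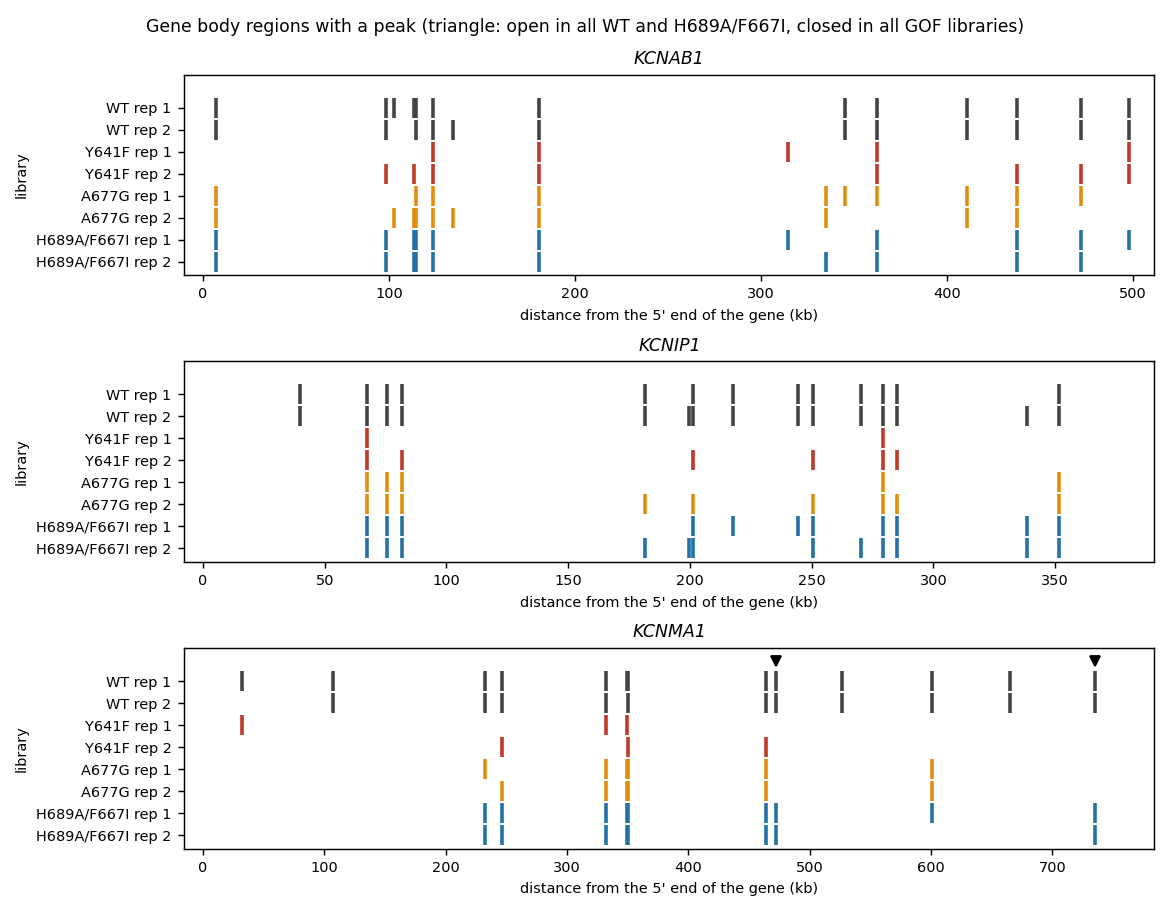
Each tick is a gene body region with a peak in 1 library (rows), placed by its distance in kb from the 5′ end of KCNAB1, KCNIP1 and KCNMA1, and triangles mark regions open in all WT and H689A/F667I libraries and closed in all 4 GOF libraries. Both triangles are in KCNMA1, and the Y641F rows hold the fewest ticks.

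Other channel genes were listed beside the KCN genes. Of 23 genes for partners of potassium channels, 12 promoters were open in all 8 libraries, and of 17 open in both WT libraries 3 were lost in Y641F (AMIGO1, LRRC52 and LRRC26), 2 in A677G (LRRC52 and LRRC26) and 0 in H689A/F667I. LRRC26 and LRRC52 are auxiliary subunits of KCNMA1 and its relatives. Of the 14 sodium channel genes (SCN), 10 were open in both WT libraries, and 3 were lost in Y641F, SCN1A and SCN7A among them, 1 in A677G and 1 in H689A/F667I, both SCN1A. Of the 25 calcium channel genes (CACN), 18 were open in both WT libraries, and 8 were lost in Y641F (CACNA1B, CACNA1C, CACNA1D, CACNA1E, CACNB1, CACNG4, CACNG6 and CACNG8), 3 in A677G (CACNA1C, CACNA1D and CACNG4) and 1 in H689A/F667I (CACNA1D). CACNA1D, the pore of an L-type channel, had no peak in any mutant library. In each of these 3 lists no promoter was gained, and the backgrounds are those given above for promoters lost.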

How the data were processed

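ATAC-seq was measured in 8 libraries, 2 for each of 4 HEK293T lines, with groups and replicate numbers taken from the sample titles. Per the study's methods the replicates were independent biological ones. Per the study's methods and the submitters' processing notes, the authors trimmed reads with Trim Galore 0.6.5, aligned them to hg38 with BWA 0.7.17, removed duplicates and called broad peaks in each library with MACS2 2.2.7.1. How reads were shifted for Tn5 and the read depth are not given in the sources used here, so no counting error could be given. Each peak of the deposited lists has a fold (ratio of pileup to local background), −log10 p, −log10 q and a score, the last left unused. The lowest deposited −log10 q was 1.0 in every library.

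From these lists, peaks on chromosomes 1 to 22 were assigned to promoters and gene bodies of GENCODE 44 as defined with the results, which left out KCN genes on chromosome X, and no peak ended past its hg38 chromosome. Regions were merged at 1 shared bp. Lists were described by counts beside all protein-coding genes, without a test of the list. Fold was tested with limma 3.58.1 (empirical Bayes with trend, all 4 lines in 1 fit, Benjamini-Hochberg over all promoters fitted) in R 4.3.3, and the rest was computed in Python 3.11.15. A promoter closed in any library has no value there and was not fitted. Promoter losses and limma calls were tested on simulated data. Named genes were the members lost or gained, the 6 with the highest and the 6 with the lowest WT fold percentile among those open in all libraries, the 5 widest, the 6 with most gene body regions, members called by limma (none), body regions closed in the GOF libraries only, and members of the other channel lists lost or gained. KCNT2, KCNA1, the genes lost or gained at equal peak number and those with gained body regions were picked with their values already known, as were the printed sequences. A few genes are counted in totals and not reported by name here. The members and lists were chosen with earlier results of these data known. Alternatives were a stricter −log10 q (at least 5), 25423 peaks in each library, a window of 500 bp, the 5′ end of the gene record as the only TSS, dropping body regions at other promoters or under 500 bp, no centring, summed width, a replicate block, and leaving out each library.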

Additional observations from a re-analysis of the deposited data

Results flagged for a closer look

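At 3 KCN promoters both libraries of 1 mutant had a centred log2 fold above both WT libraries while both libraries of another mutant were below them. At KCNAB2 Y641F was above and H689A/F667I below WT, a difference of 0.43 between the mutants (0.40 against -0.03, WT 0.12), with an adjusted p of 0.118 in limma. At KCNC4 A677G was above and H689A/F667I below, a difference of 0.24 (-0.39 against -0.63, WT -0.56), with an adjusted p of 0.766 in limma. At KCNG3 Y641F was above and H689A/F667I below, a difference of 0.21 (-0.31 against -0.51, WT -0.46), with an adjusted p of 0.389 in limma. No difference between mutants passed the threshold at these genes, and such opposite sides were found at 3 of 32 KCN promoters (9.38%) and at 6.82% of all 11153 promoters.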

How the results depend on the processing

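Of the KCN counts, those of promoters lost were within 1.5 times the main value with a −log10 q of at least 5, a window of 500 bp and the 5′ end of the gene record. The shares were less stable. At that q 12, 7 and 3 of 30 KCN promoters open in both WT libraries were lost in Y641F, A677G and H689A/F667I. With all peaks it was 15, 5 and 4 of 60. The share over all promoters at that q is not reported here. The counts moved at equal peak number, to 1 in Y641F, to 0 in A677G and to 1 in H689A/F667I. Promoters gained then numbered 1 in Y641F and 2 in A677G (1.92% and 3.85%, against 3.62% and 3.02% of all). Each of these had a peak in both WT libraries when all peaks were counted. Leaving out 1 library asks less of a line, and promoters lost then numbered 17 to 26 in Y641F, 7 to 9 in A677G, then 6 to 8 in H689A/F667I, highest without Y641F replicate 2 and A677G replicate 2, and without WT replicate 2 or H689A/F667I replicate 1. Promoters gained were 0 to 1, 0 to 1 and 0 to 3.

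Gene body regions lost (in the same order of mutants) fell to 20, 18 and 10 of 33 with a −log10 q of at least 5, where 60.6%, 54.5% and 30.3% were lost against 58.0%, 39.4% and 27.8% of all, to 8, 4 and 4 of 37 at equal peak number, and to 40, 22 and 13 among regions of at least 500 bp. Without single libraries they were 60 to 104, 25 to 66 and 8 to 42, the last being 8 without WT replicate 1 and 42 without H689A/F667I replicate 2. Regions gained at equal peak number were 3, 5 and 7 of 21 (14.3%, 23.8% and 33.3%, against 25.7%, 23.5% and 22.3% of all). With the stricter q they were 0, 0 and 1 of 2, against 4.26%, 13.3% and 35.6% of all. They were 2 in A677G at 500 bp, and without single libraries 0 to 1, 3 to 8 and 3 to 3. For regions of at least 500 bp and without single libraries, shares over all regions are not reported here. Counts that were added after seeing the data, of body regions closed in all GOF libraries only, were 3 with the stricter q and 0 at equal peak number, and 7 to 14 without single libraries, while those of promoters were 0 to 2. The cause was not tested.

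KCN promoters called by limma for Y641F were 1 (KCNT2) with the 5′ end only and 2 (KCNA1 among them) without centring, and 0 in the other fits, including each without 1 library (0 to 0). Over all promoters, the 205 calls for Y641F became 513 without centring, 81 with the stricter q, 32 for summed width, and 132 and 134 without A677G replicates 1 and 2. With the replicate block 0 KCN promoters were called and 184 in all, and the correlations of same-numbered libraries' deviations (-0.017 to 0.0565) did not show that the numbers pair the samples. Depth is unknown and peak number differs between lines, and the part of peak number in the loss of weak promoter peaks was not tested beyond the counts at equal peak number.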
